A study of Mus musculus with 8 samples.

Results

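Genes of the mitochondrial carrier family that bear Slc25a symbols were described across 8 mouse livers on 1-colour Affymetrix Mouse Gene 2.0 expression arrays. The members, called the family below, were the genes whose symbol starts with Slc25a and that have a probe set annotated to that gene alone. Carrier genes with other symbols are not among them. There were 46 among 22180 genes tested, each with 1 such probe set, and 1 further probe set that Slc25a35 shares with a neighbouring gene was left out. The mice were 3 months old, on normal chow and a 24-hour light and dark cycle, and had received adeno-associated virus (AAV) by vein. In the 4 NCOR_KO livers the virus carried Cre recombinase and in the 4 WT livers GFP. The organs were collected at 2 weeks after injection, at 5 pm (ZT10). The design text speaks of floxed NCOR mice under either virus and the labels of wild-type controls, which leaves the allele of the controls unsettled. Cre activity as such and loss of NCOR cannot be told apart. The labels do not give the promoter that drives Cre or GFP. Values for the targeted gene were not analysed here, so the labels were not checked against it.

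Mitochondrial carriers are small proteins of the inner mitochondrial membrane, built from a motif repeated along the chain, that exchange metabolites between the matrix and the cytosol. A few sit in other membranes such as that of the peroxisome. In liver they connect the matrix to the urea cycle, gluconeogenesis, fatty acid oxidation, lipogenesis and ATP export. The corepressor NCOR works with the deacetylase HDAC3 at genes bound by nuclear receptors, and the comparison asks how liver transcripts differ after its loss.

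No member passed the threshold. With limma, 0 of 46 Slc25a genes had a Benjamini-Hochberg adjusted p under 0.05 over all genes, where 1.65% of all genes tested did (366). Of all genes 181 (0.816%) rose and 185 (0.834%) fell, or 145 and 295 with each array centred on its median. At an unadjusted p under 0.05 there were 12 of 46, or 26.1%, against 15.9% of all genes. Of these 12, 9 lay higher in NCOR_KO (background 7.75%) and 3 lower (background 8.15%). In 9 of the 46, or 19.6%, the range of the NCOR_KO arrays did not overlap that of the WT arrays, against 10.4% of all genes. Of these 9, 8 lay higher (background 4.9%) and 1 lower (background 5.49%). These shares describe the list and were not tested. The background was not matched for level: 38 of the 46 members were at or above the median level of all genes. No share for genes of like level is given here, so the excess cannot be read as a trait of the carriers. The members' median log2 change was 0.05, beside 0.01 over all genes, or 0.01 beside -0.03 with each array centred on its median. The change was above 0 in 27 members (58.7%, where 52.0% of all genes were) and below 0 in 19. The median size of the change was 0.12 beside 0.08.

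The size of the differences was bounded more closely than the missed threshold shows. In 36 of 46 members the estimated log2 change was at most 0.2 in either direction, as it was in 19039 of all 22180 genes. In 41 of 46 the 95% interval lay wholly within 0.5 in either direction, as it did in 20432 of all 22180 genes. The members were thus not bounded more closely than genes at large. These 41 include all 8 members below the median level. The 5 whose interval reached past 0.5 were Slc25a10, Slc25a15, Slc25a30, Slc25a33 and Slc25a45. The changes ran from -0.31 for Slc25a48 to 0.66 for Slc25a30.

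**Figure D1:**
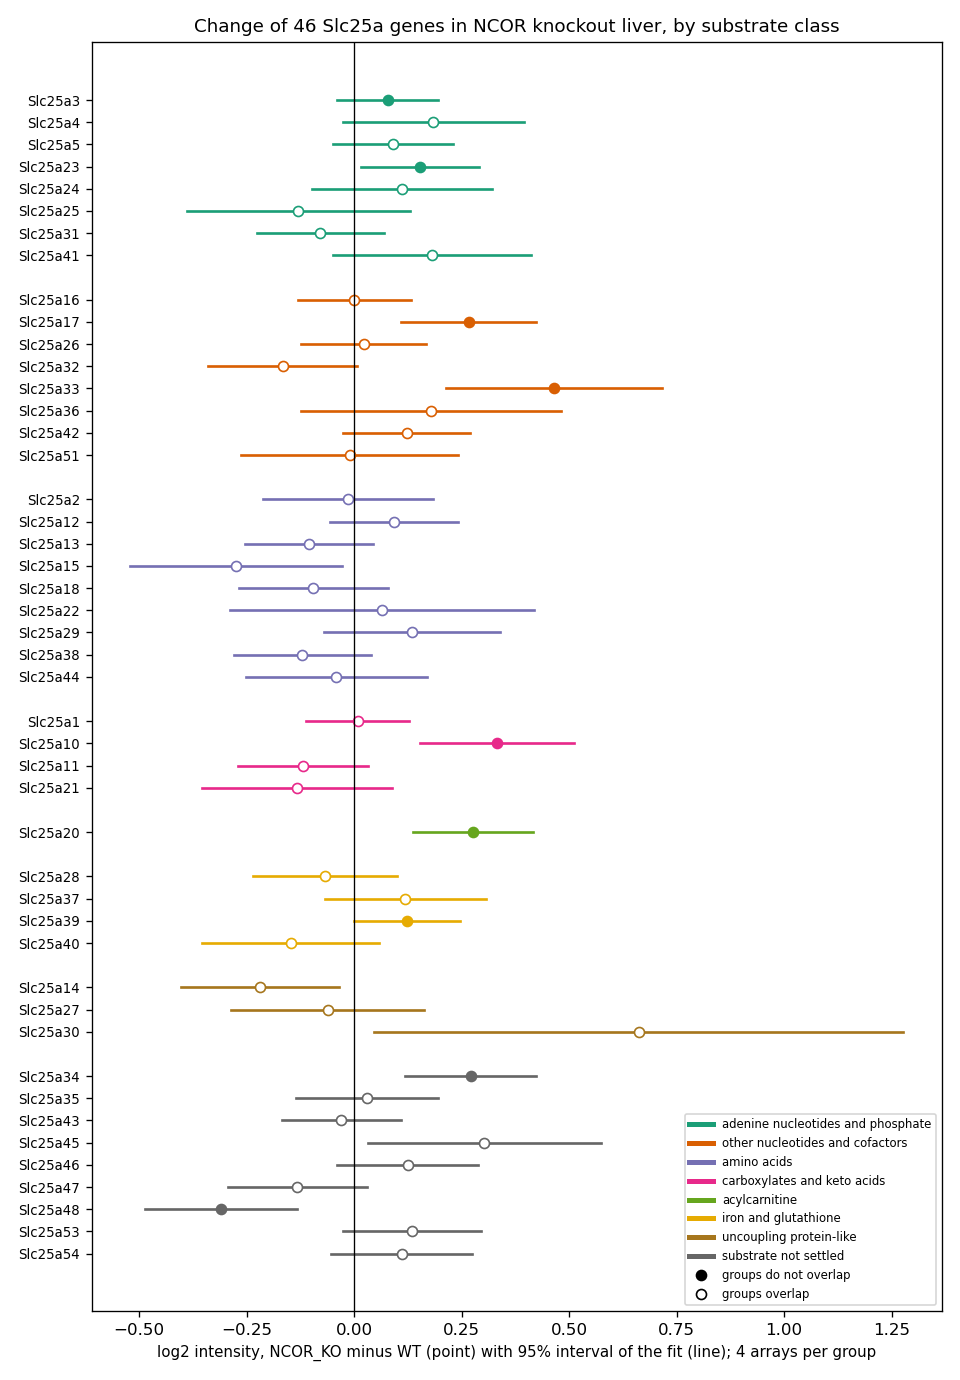
Log2 change (NCOR_KO minus WT, points) of the 46 Slc25a genes with the 95% interval of the limma fit (lines), coloured by substrate class, with filled points where the 4 values of each group do not overlap. Filled points number 9, of which only Slc25a48 lies below 0, and the widest interval is that of Slc25a30.

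Substrate classes were assigned from textbook knowledge. The levels given below are log2 intensities, and since probe sets differ in how well they hybridise, levels of different genes are not set against each other. To show which values are near the dim end, the median over all genes was 5.88 with quartiles of 4.55 and 7.91. By that scale 38 of 46 members were at or above the median, 28 of them above the upper quartile, and 3 lay below the lower quartile. All 9 members whose groups did not overlap were among the 38. Dim members, whose missed threshold says little, were Slc25a2, Slc25a14, Slc25a18, Slc25a31 and Slc25a43 below the median and Slc25a41, Slc25a53 and Slc25a54 below the lower quartile.

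Slc25a20 encodes the carnitine/acylcarnitine carrier, which brings acylcarnitines into the matrix for fatty acid oxidation, and it had the lowest adjusted p of the family. Its gene lies on chromosome 9, 108662136 to 108684642 (GRCm38.p6). Its log2 intensity was 10.72, 10.87, 10.78 and 10.65 in WT replicates 1 to 4 and 11.07, 11.04, 10.97 and 11.05 in NCOR_KO replicates 1 to 4. All 4 NCOR_KO values lay above all 4 WT values, with 0.10 between the groups. The difference was 0.28 ± 0.06 (SE; 95% interval 0.14 to 0.42; limma adjusted p = 0.0601), or 1.21-fold. Without WT replicate 2 its adjusted p was 0.0449, and over the other arrays left out singly it reached 0.158.

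Slc25a10 encodes the dicarboxylate carrier, which exchanges malate and succinate for phosphate. It lies on chromosome 11, 120491837 to 120501161. Values on the log2 scale were 9.48, 9.57, 9.54 and 9.57 in WT replicates 1 to 4 and 10.06, 9.91, 9.66 and 9.86 in NCOR_KO replicates 1 to 4. The WT arrays were tight, with an SD of 0.04, while NCOR_KO replicate 1 was highest and replicate 3 came closest to the WT values without reaching them. The difference was 0.33 ± 0.08 (SE; 95% interval 0.15 to 0.51; limma adjusted p = 0.0751), or 1.26-fold. Without NCOR_KO replicate 3 the adjusted p was 0.0401 at a change of 0.40, and with the other arrays left out singly it was up to 0.190.

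Slc25a33 encodes a carrier of pyrimidine nucleotides and lies on chromosome 4, 149744036 to 149774267. Its log2 intensity was 9.54, 9.55, 9.09 and 9.24 in WT replicates 1 to 4 and 10.04, 9.77, 9.76 and 9.72 in NCOR_KO replicates 1 to 4. WT replicates 3 and 4 were lower than WT replicates 1 and 2, NCOR_KO replicate 1 stood above the other NCOR_KO arrays, and the groups did not overlap. The difference was 0.46 ± 0.11 (SE; 95% interval 0.21 to 0.72; limma adjusted p = 0.0754), or 1.38-fold, the largest among the 9 members without overlap. Slc25a36, the other pyrimidine nucleotide carrier, was at 6.47 ± 0.27 in WT and 6.65 ± 0.20 in NCOR_KO liver (SD, n = 4), with overlapping groups and a change of 0.18 (adjusted p = 0.562).

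The upstream sequences of these 3 genes are shown because each lay higher in all 4 NCOR_KO arrays, with a change of at least 0.3 or the lowest adjusted p of the family. They are the 250 bases before the annotated start, from RefSeq on GRCm38.p6. Capitals mark matches on either strand to AGGTCA (the nuclear receptor half-site), GGGCGG (the GC box), CCAAT and CACGTG (an E-box), which may overlap.
Slc25a10, chr11:120491587-120491836, plus strand: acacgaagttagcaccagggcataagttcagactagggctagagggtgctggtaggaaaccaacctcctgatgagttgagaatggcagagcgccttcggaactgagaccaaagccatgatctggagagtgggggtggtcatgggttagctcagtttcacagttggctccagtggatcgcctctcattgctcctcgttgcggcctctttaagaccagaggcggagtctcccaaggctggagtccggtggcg
Slc25a20, chr9:108661886-108662135, plus strand: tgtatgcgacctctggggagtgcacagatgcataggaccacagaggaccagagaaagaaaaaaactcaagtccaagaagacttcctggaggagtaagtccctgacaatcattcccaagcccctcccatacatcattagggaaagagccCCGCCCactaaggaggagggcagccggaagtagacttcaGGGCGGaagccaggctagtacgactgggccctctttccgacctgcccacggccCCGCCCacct
Slc25a33, chr4:149774268-149774517, minus strand: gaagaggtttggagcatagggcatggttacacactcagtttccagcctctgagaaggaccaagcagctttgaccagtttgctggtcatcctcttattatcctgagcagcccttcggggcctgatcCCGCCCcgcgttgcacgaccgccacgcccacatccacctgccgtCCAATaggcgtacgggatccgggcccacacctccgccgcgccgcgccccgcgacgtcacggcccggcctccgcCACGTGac
The Slc25a20 window held 3 GC boxes, the Slc25a33 window 1 GC box, 1 CCAAT and 1 E-box, and the Slc25a10 window none of the 4 motifs. AGGTCA was in none of the 3. The RefSeq table had windows for 36 of the 46 members, 46 windows in all. GGGCGG was in 69.6% of those 46 and in 32.7% of all 32851 windows in the table, which also cover noncoding genes. AGGTCA was in 8.70% of the members' windows and in 14.0% of all, CCAAT in 45.7% and 33.8%, and CACGTG in 17.4% and 6.02%. A match is a stretch of letters, not a bound site.

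Slc25a17 encodes the peroxisomal carrier of coenzyme A, FAD and NAD and lies on chromosome 15, 81318921 to 81360765. Log2 values stood at 10.02, 9.86, 10.09 and 10.004 in WT replicates 1 to 4 and 10.15, 10.24, 10.29 and 10.36 in NCOR_KO replicates 1 to 4. The groups did not overlap, with the lowest NCOR_KO value in replicate 1. The difference was 0.27 ± 0.07 (SE; 95% interval 0.11 to 0.42; limma adjusted p = 0.0956), or 1.203-fold.

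Slc25a34, listed here as without a settled substrate, lies on chromosome 4, 141618819 to 141623891. By array it measured 7.22, 7.29, 7.24 and 7.28 in WT replicates 1 to 4 and 7.65, 7.49, 7.59 and 7.38 in NCOR_KO replicates 1 to 4. The WT arrays lay within 0.07 of each other and below all NCOR_KO arrays. The difference was 0.27 ± 0.07 (SE; 95% interval 0.12 to 0.42; limma adjusted p = 0.0842), or 1.21-fold.

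Slc25a48, also listed here as without a settled substrate, lies on chromosome 13, 56437960 to 56472367. It was the one member without overlap that lay lower in NCOR_KO. Its log2 intensity was 7.65, 7.50, 7.32 and 7.48 in WT replicates 1 to 4 and 7.29, 7.12, 7.07 and 7.24 in NCOR_KO replicates 1 to 4. The gap between the groups was narrow, at 0.04 between WT replicate 3 and NCOR_KO replicate 1. The difference was -0.31 ± 0.08 (SE; 95% interval -0.49 to -0.13; limma adjusted p = 0.0895), or 1.24-fold lower. These 6 genes, 5 higher and 1 lower, are the members with an adjusted p under 0.1, a threshold that 3.64% of all genes met.

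**Figure D2:**
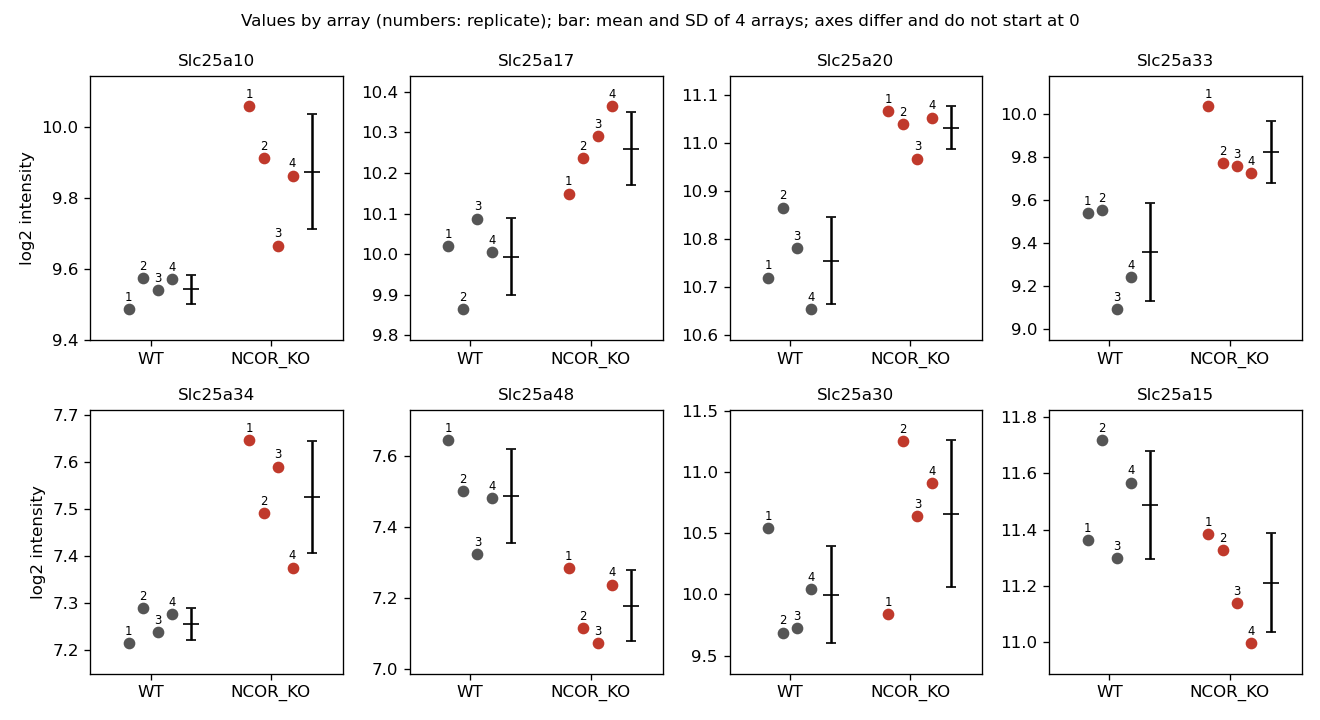
Log2 intensity of 8 Slc25a genes in each array (points, numbered by replicate) with the mean and SD of each group of 4, on axes that differ between panels. In Slc25a10, Slc25a17, Slc25a20, Slc25a33, Slc25a34 and Slc25a48 the groups do not overlap, while in Slc25a30 NCOR_KO replicate 1 lies among the WT arrays and in Slc25a15 the groups meet.

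In the class of adenine nucleotides and phosphate, 0 of 8 members passed and 2 had groups that did not overlap (background 10.4%). The classes are small, and differences between them were not tested. The median change was 0.10, with 6 members above 0. Slc25a5, the ADP/ATP carrier of most tissues outside heart and muscle, which exports ATP from the matrix, was at 12.28 ± 0.10 in WT and 12.37 ± 0.03 in NCOR_KO liver (SD, n = 4), a change of 0.09 (adjusted p = 0.525). The largest change of the class was that of Slc25a4, the form prominent in heart and muscle, whose log2 intensity was 6.07, 5.85, 6.09 and 6.22 in WT replicates 1 to 4 and 6.03, 6.34, 6.33 and 6.27 in NCOR_KO replicates 1 to 4. WT replicate 2 was lowest and NCOR_KO replicate 1 lay among the WT arrays. The change was 0.18 (adjusted p = 0.374).

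The phosphate carrier Slc25a3 differed by 0.08, or 1.06-fold (adjusted p = 0.512), and its groups did not overlap, by a gap of 0.01. The calcium-regulated ATP-Mg/phosphate carriers gave 0.15 (adjusted p = 0.261) for Slc25a23 and 0.11 (adjusted p = 0.608) for Slc25a24. The third of them, Slc25a25, was at 9.60 ± 0.21 in WT and 9.47 ± 0.18 in NCOR_KO liver (SD, n = 4), a change of -0.13 (adjusted p = 0.630). Slc25a23 was the one of the 3 whose groups did not overlap. Slc25a41 (0.18) and Slc25a31 (-0.08) were dim, the latter the ADP/ATP carrier of the testis.

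Among carriers of other nucleotides and cofactors, 0 of 8 measured members passed and the median change was 0.07. Of the 8, 2 (Slc25a17 and Slc25a33, above) had no overlap (background 10.4%). Other symbols listed for this class were not analysed here. The coenzyme A carrier Slc25a42 was at 10.001 ± 0.05 in WT and 10.12 ± 0.11 in NCOR_KO liver (SD, n = 4), a change of 0.12 (adjusted p = 0.407), and Slc25a16, also linked to coenzyme A, at 0.00 (adjusted p = 0.997). The folate and FAD carrier Slc25a32 was at -0.17 (adjusted p = 0.333), the NAD carrier Slc25a51 at -0.01 (adjusted p = 0.976) and the S-adenosylmethionine carrier Slc25a26 at 0.02 (adjusted p = 0.903). The changes of Slc25a16, Slc25a26 and Slc25a51 turned sign under some settings.

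Amino acid carriers had 0 of 9 members past the threshold, 0 without overlap (background 10.4%) and a median change of -0.04, with 6 below 0. The largest change was that of Slc25a15, the ornithine carrier of the urea cycle, on chromosome 8, 22375550 to 22398621. On the log2 scale the arrays read 11.36, 11.72, 11.30 and 11.57 in WT replicates 1 to 4 and 11.38, 11.33, 11.14 and 10.997 in NCOR_KO replicates 1 to 4. NCOR_KO replicates 3 and 4 were lowest, and NCOR_KO replicates 1 and 2 lay within the range of the WT arrays. The difference was -0.27 ± 0.11 (SE; 95% interval -0.52 to -0.03; limma adjusted p = 0.261), or 1.21-fold lower. The aspartate/glutamate carrier of liver, Slc25a13 or citrin, was at 11.28 ± 0.10 in WT and 11.17 ± 0.06 in NCOR_KO liver (SD, n = 4), a change of -0.10 (adjusted p = 0.488), and its relative Slc25a12 was at 0.09 (adjusted p = 0.541).

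The glutamate carrier Slc25a22 varied most within the class. The log2 values were 10.53, 11.20, 10.50 and 10.92 in WT replicates 1 to 4 and 11.05, 10.96, 10.86 and 10.54 in NCOR_KO replicates 1 to 4. WT replicate 2 was the highest of all 8 arrays and WT replicates 1 and 3 the lowest, and the groups overlapped, with a change of 0.06 (adjusted p = 0.881) that turned sign when WT replicate 1, WT replicate 3 or NCOR_KO replicate 1 was left out. The other members were at -0.09 for the second glutamate carrier Slc25a18, -0.01 for the ornithine carrier Slc25a2, 0.13 for the basic amino acid carrier Slc25a29, -0.12 for the glycine carrier Slc25a38 and -0.04 for the branched-chain amino acid carrier Slc25a44. The signs for Slc25a2 and Slc25a44 turned under some settings.

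Of the 4 carriers of carboxylates and keto acids, Slc25a10 (above) was the one without overlap (background 10.4%). The citrate carrier Slc25a1, which supplies citrate for cytosolic acetyl-CoA, had a log2 intensity of 11.59, 11.57, 11.58 and 11.62 in WT replicates 1 to 4 and 11.60, 11.57, 11.55 and 11.67 in NCOR_KO replicates 1 to 4. The 8 values lay within 0.11 of each other, and the difference was 0.01 ± 0.05 (SE; 95% interval -0.11 to 0.13; limma adjusted p = 0.958), with the sign turned when arrays were centred on their median or weighted or when NCOR_KO replicate 4 was left out. The oxoglutarate carrier Slc25a11, part of the malate-aspartate shuttle, was at -0.12 (adjusted p = 0.433) and the oxodicarboxylate carrier Slc25a21 at -0.13 (adjusted p = 0.553). The class median was -0.06, with 2 members above 0 and 2 below.

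In the iron and glutathione class, 0 of 4 passed. Slc25a39, a glutathione carrier, had a log2 intensity of 11.88, 11.84, 11.85 and 11.85 in WT replicates 1 to 4 and 12.06, 11.97, 11.91 and 11.97 in NCOR_KO replicates 1 to 4. The WT arrays lay within 0.04 of each other and the groups did not overlap, by a gap of 0.03. The difference was 0.12 ± 0.06 (SE; 95% interval 0.00 to 0.25; limma adjusted p = 0.314), or 1.09-fold. Its relative Slc25a40, with the largest change of the class, had a log2 intensity of 7.54, 7.34, 7.49 and 7.71 in WT replicates 1 to 4 and 7.21, 7.51, 7.31 and 7.47 in NCOR_KO replicates 1 to 4. The groups overlapped, and the change was -0.15 (adjusted p = 0.477). The iron importers mitoferrin-1 (Slc25a37) and mitoferrin-2 (Slc25a28) were at 0.12 (adjusted p = 0.527) and -0.07 (adjusted p = 0.708). Slc25a37 is abundant in red blood cell precursors, and the 2 measured erythroid markers, Slc4a1 and Epb42, were both below the median level, with a summed intensity of 70.7 to 79.9 in WT and 69.1 to 80.4 in NCOR_KO.

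The relatives of uncoupling proteins held the largest change of the family and the largest spread. Slc25a30, also called kidney mitochondrial carrier protein, lies on chromosome 14, 75757534 to 75787037. Its log2 intensity was 10.54, 9.69, 9.72 and 10.05 in WT replicates 1 to 4 and 9.84, 11.25, 10.64 and 10.91 in NCOR_KO replicates 1 to 4. NCOR_KO replicates 2, 3 and 4 lay above all WT arrays, while NCOR_KO replicate 1 lay below WT replicates 1 and 4. The pooled within-group SD was 0.51, where the median over the members was 0.11 and over all genes 0.11. The difference was 0.66 ± 0.28 (SE; 95% interval 0.05 to 1.28; limma adjusted p = 0.277), or 1.58-fold. Without NCOR_KO replicate 1 it was 0.94 with an adjusted p of 0.0908, and without NCOR_KO replicate 2 it was 0.46 with an adjusted p of 0.512. Slc25a14, a dim relative, was at -0.22 (adjusted p = 0.232) and Slc25a27 at -0.06 (adjusted p = 0.811).

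Members listed here as without a settled substrate numbered 9, with 0 past the threshold and a median change of 0.11. Slc25a47, a carrier found mainly in liver, was at 12.42 ± 0.07 in WT and 12.29 ± 0.12 in NCOR_KO liver (SD, n = 4), a change of -0.13 (adjusted p = 0.411), with NCOR_KO replicate 1 inside the WT range. Slc25a45 was at 8.24 ± 0.22 in WT and 8.55 ± 0.20 in NCOR_KO liver (SD, n = 4), a change of 0.30 (adjusted p = 0.261). Its NCOR_KO replicate 4 was the highest array at 8.83 and its WT replicate 3, at 8.56, reached into the NCOR_KO values. Slc25a46, an outer membrane member, was at 0.12 (adjusted p = 0.451), Slc25a35 at 0.03, Slc25a43 at -0.03, Slc25a53 at 0.14 and Slc25a54 at 0.11. The signs for Slc25a35 and Slc25a43 turned under some settings.

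**Figure D3:**
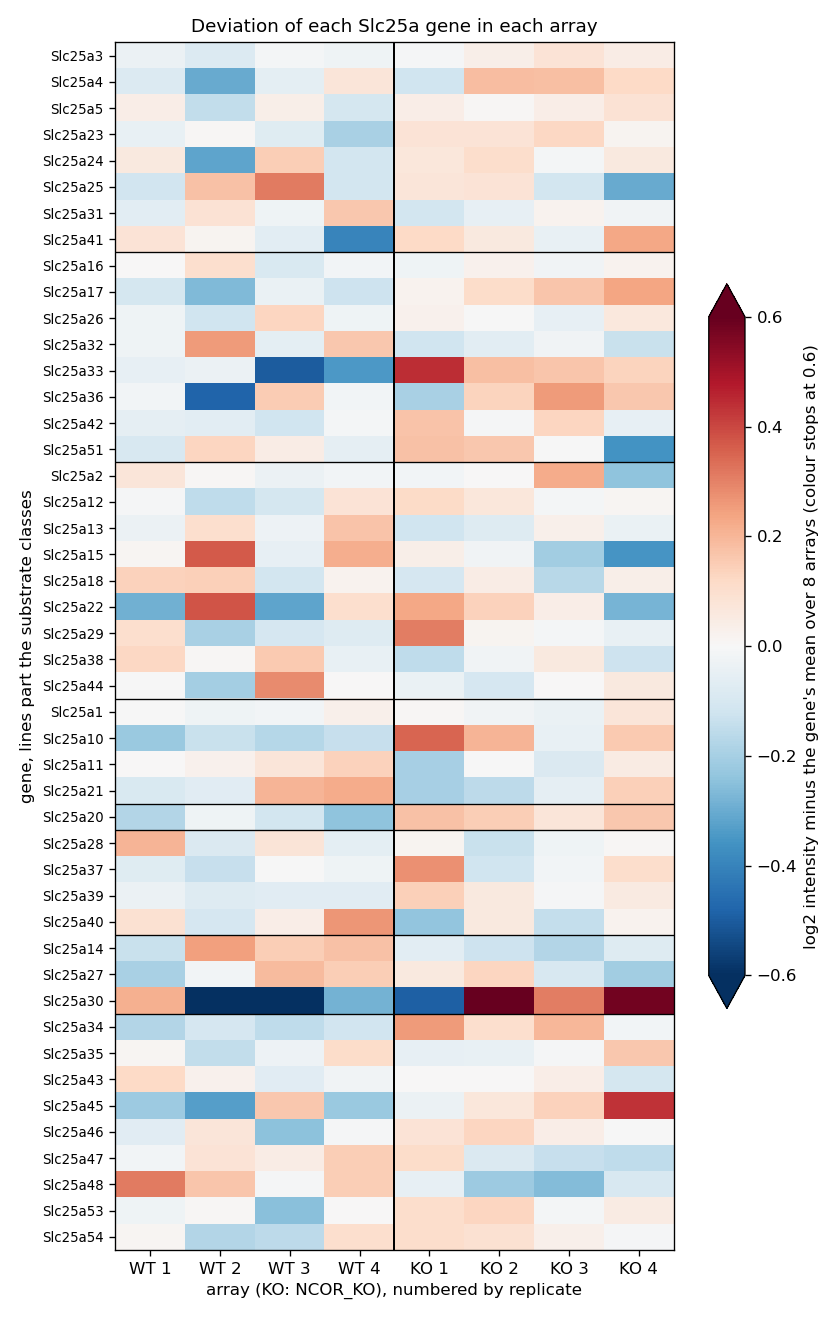
Log2 intensity of each of the 46 Slc25a genes in each array, minus the gene's mean over 8 arrays, with lines between the substrate classes and between the groups. Slc25a30 shows the strongest colours in both groups, and WT replicate 2 holds the lowest value in 16 of the 46 rows.

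Transporters and channels of mitochondria outside the Slc25a symbols were set beside the family. Of 19 measured, 0 passed, and 4 had an unadjusted p under 0.05 (21.1%, background 15.9%). Mpc1, a subunit of the mitochondrial pyruvate carrier, was at 0.14 (adjusted p = 0.254), the outer membrane protein Mtch2, itself a distant carrier relative, at 0.16 (adjusted p = 0.183), and Letm1, an inner membrane ion transport protein, at 0.21 (adjusted p = 0.139). Each of these 3 had groups without overlap, which makes 15.8% of the list beside 10.4% of all genes. The serine transporter Sfxn1 was at -0.19 (adjusted p = 0.232). Of 27 genes of mitochondrial import and mass, 0 passed and 1 had an unadjusted p under 0.05 (3.70%, background 15.9%). It was Tfb2m, a mitochondrial transcription factor, at 0.19 (adjusted p = 0.260). The median change of that list was 0.01.

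Of 32 enzymes that make or use the carriers' substrates, 4 rose (background 0.816%), 0 fell (background 0.834%) and 28 did not pass. Among the 32, 29 were above the upper quartile of all genes by level. The background was not matched for level, so the excess cannot be read as a trait of these enzymes. Citrate synthase, Cs, which makes the citrate that Slc25a1 carries, had a log2 intensity of 10.32, 10.34, 10.35 and 10.30 in WT replicates 1 to 4 and 10.86, 10.67, 10.67 and 10.67 in NCOR_KO replicates 1 to 4. The groups did not overlap and NCOR_KO replicate 1 was highest. Cs rose by 0.39 ± 0.06 (SE; 95% interval 0.25 to 0.53; limma adjusted p = 0.0144), or 1.31-fold. Crat, the carnitine acetyltransferase whose products Slc25a20 can carry, had a log2 intensity of 9.51, 9.78, 9.40 and 9.30 in WT replicates 1 to 4 and 10.53, 10.44, 10.24 and 10.28 in NCOR_KO replicates 1 to 4, a rise of 0.87 (adjusted p = 0.00415). Me1, which turns malate into pyruvate in the cytosol, had a log2 intensity of 10.88, 10.75, 11.30 and 10.98 in WT replicates 1 to 4 and 12.16, 11.97, 11.93 and 11.79 in NCOR_KO replicates 1 to 4, a rise of 0.98 (adjusted p = 0.00353). Gpd2, which passes electrons of the glycerol phosphate shuttle to the inner membrane, had a log2 intensity of 8.25, 8.47, 8.53 and 8.68 in WT replicates 1 to 4 and 9.20, 9.24, 8.99 and 9.03 in NCOR_KO replicates 1 to 4, a rise of 0.63 (adjusted p = 0.0121). All 4 NCOR_KO arrays were above all 4 WT arrays in each of these genes. Of the 32, 6 had groups without overlap that lay higher (background 4.9%) and 2 lower (background 5.49%). Besides the 4 that rose, the higher ones were Coasy at 0.17 (limma adjusted p = 0.208) and Idh1 at 0.09 (limma adjusted p = 0.448). The lower ones were the urea cycle enzyme Asl at -0.25 (adjusted p = 0.108) and the aspartate aminotransferase Got1 at -0.26 (adjusted p = 0.129). None of Coasy, Idh1, Asl and Got1 passed the threshold.

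Median array intensity lay between 41.0 and 44.1, and all 8 hepatocyte markers were above the upper quartile of genes. Their summed intensity was 62422 to 64422 in WT and 62693 to 64160 in NCOR_KO. Of these 8 markers, 5 lay above 0 and 0 passed the threshold. In 2 of them the groups did not overlap, Ttr at -0.06 and Serpina1a at -0.12, both lower in NCOR_KO (background 5.49%). Endothelial markers lay above 0 in 6 of 6, with a median change of 0.25 and 0 past the threshold. Of these 6, 5 had an unadjusted p under 0.05 (background 15.9%) and 2 had groups without overlap (background 10.4%). Their intensities summed to 4712 to 5543 in WT and 5463 to 6445 in NCOR_KO. Cholangiocyte markers lay above 0 in 4 of 4, with 1 that rose (Epcam, background 0.816%). They summed to 302 to 318 in WT and 350 to 419 in NCOR_KO. Of 4 lymphocyte markers 2 rose (background 0.816%), Cd3e and Cd79a, both below the median level. The brighter Ptprc, at 0.02 (limma adjusted p = 0.957), and Nkg7, at 0.09 (limma adjusted p = 0.663), did not pass. The 4 summed to 291 to 338 in WT and 323 to 377 in NCOR_KO. Markers of brown fat and muscle, 4 of 5 of them below the median level, had 0 past the threshold and summed to 149 to 170 in WT and 171 to 181 in NCOR_KO. Kupffer cell and macrophage markers summed to 1681 to 3283 in WT and 2061 to 3604 in NCOR_KO, with 0 of 6 past the threshold. Stellate cell markers summed to 1505 to 1687 in WT and 1429 to 1600 in NCOR_KO, with 0 of 6 past it. The part of these markers in the members' values was not tested. In whole liver, fewer cells of a type and less RNA per cell cannot be told apart. Principal components over all genes put the groups apart on the first axis (33.1% of variance), while WT replicate 2 and NCOR_KO replicate 1 stood at the low end of the second (20.4%). With those arrays both left out, 0 of 46 members passed and their median change was 0.02.

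**Figure D4:**
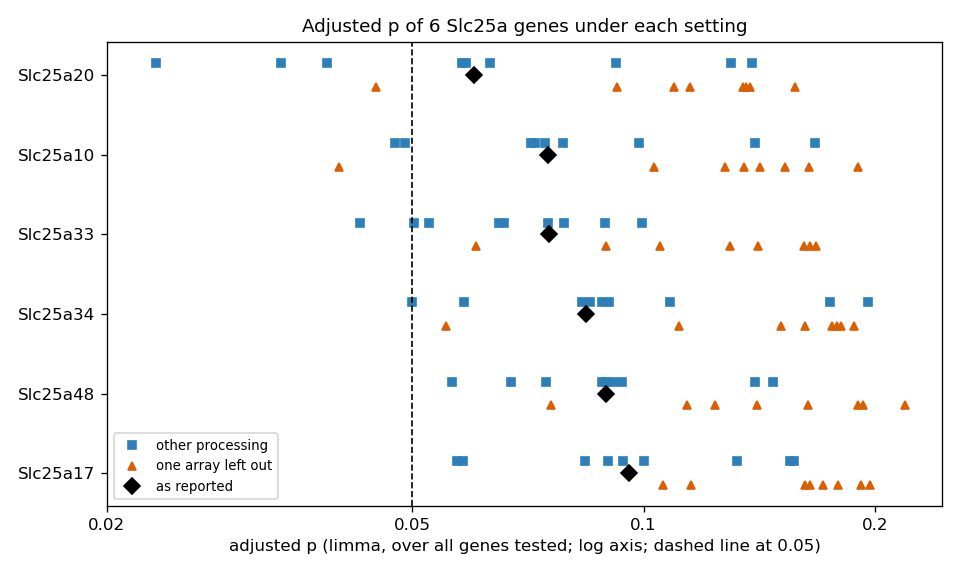
Adjusted p of the 6 Slc25a genes that lay nearest the threshold (log axis, dashed line at 0.05), as reported (diamonds), with 1 array left out (triangles) and under other processing (squares). Slc25a20, Slc25a10, Slc25a33 and Slc25a34 have values under 0.05 in 4, 3, 1 and 1 settings, and Slc25a17 and Slc25a48 in none.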

How the data were processed

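The values the authors deposited are linear probe-set intensity values. RMA and Partek are named in the submitters' processing notes, with no role or version, and the build is not given in the sources used here. Log2 was taken, with no further normalization. From 41345 probe sets, those with no assigned gene (16010) or more than 1 gene (1814) were dropped, and for genes with more than 1 probe set the brightest by mean over 8 arrays was kept, leaving 22180 genes without a filter on dim ones. Groups came from the sample titles. The groups were compared with limma 3.58.1 in R 4.3.3 (lmFit and eBayes, intercept and group), adjusted by Benjamini-Hochberg over all genes, with a threshold of 0.05. Changes are NCOR_KO minus WT, and errors are standard errors of the fit. The steps were tested on simulated data. Figures were drawn with matplotlib 3.10.9 in Python 3.11.15.

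The family, substrate classes, related lists and markers were chosen with earlier results of these data known. Arrays in full were given for members past the threshold, for those without overlap and a change of at least 0.3, and for the largest change of each class, and certain liver carriers were always named. Members further described were chosen after their values were seen. The labels say biological replicates but name no animals, so the p-values reflect only how far these samples spread. The number of arrays limits the precision. Alternatives were quantile normalization, centring, array weights, trend and robust variance, a filter on dim genes, means of probe sets or each tested singly, the replicate block, thresholds of 0.01 and 0.1, leaving out each array and, chosen after seeing the data, the omission of both arrays low on the second principal component (WT replicate 2, NCOR_KO replicate 1).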

Additional observations from a re-analysis of the deposited data

Results flagged for a closer look

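In 92 groups of 4 values (46 genes in both groups), 2 held an array whose gap to the nearest other array took up more of the group's range than Dixon's 95% critical value allows, where chance flags about 5% of groups. For Slc25a33, NCOR_KO replicate 1 was at 10.04 and the other NCOR_KO arrays at 9.72 to 9.77, a ratio of 0.845. Without that array the change was 0.39 with an adjusted p of 0.168. For the dim Slc25a53, WT replicate 3 was at 4.22 and the other WT arrays at 4.44 to 4.47, a ratio of 0.863.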

How the results depend on the processing

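At the threshold of 0.05, 37 of 46 Slc25a genes kept their direction and 42 stayed on the same side over 17 other settings, or 16 for the 8 members below the median level, which the filter on dim genes left out. Direction could not turn under trend and robust variance, the filter on dim genes or the replicate block, which leave the estimated change as it was. Nor could it with means of probe sets or each tested singly, because each member was read from 1 probe set. The number past the threshold, 0 as reported, was 2 with trend and robust variance (Slc25a10 and Slc25a20) and 2 with array weights (Slc25a20 and Slc25a33). It was 3 when genes below the median level were left out (Slc25a10, Slc25a20 and Slc25a34), where 551 of all genes passed. At a threshold of 0.1 it was 6, where 807 of all genes passed. For trend and robust variance and for array weights the count of all genes is not given here. None of these counts can be read as a trait of the carriers. With single arrays left out it ran from 0 to 1. The members' median change, 0.0472, was 0.0114 with arrays centred on their median, 0.0711 when genes below the median level were left out, 0.0155 without WT replicate 2 and NCOR_KO replicate 1, and 0.0278 to 0.0758 with single arrays left out. Centring moved the median of all genes from 0.01 to -0.03. The count of all genes past the threshold, 366, was 551 when genes below the median level were left out, 202 without WT replicate 2 and NCOR_KO replicate 1, 88 at a threshold of 0.01 and 807 at 0.1. It ran from 120 (NCOR_KO replicate 2 left out) to 297 (WT replicate 2 left out) with single arrays left out. It also moved by over 1.5 times without WT replicate 1 (176), WT replicate 3 (214), WT replicate 4 (167), NCOR_KO replicate 1 (175) and NCOR_KO replicate 3 (193). The 9 members that turned sign at least once had changes of at most 0.06 in size. With arrays centred on their median Slc25a1 was at -0.0274, Slc25a16 at -0.0352, Slc25a26 at -0.0137 and Slc25a35 at -0.00581. With array weights Slc25a1 was at -0.00138, Slc25a2 at 0.0132, Slc25a26 at -0.00942 and Slc25a51 at 0.0212. Without WT replicate 2 and NCOR_KO replicate 1 Slc25a26 was at -0.0204. With single arrays left out the ranges were -0.0141 to 0.0235 for Slc25a1, -0.0904 to 0.0639 for Slc25a2, -0.0299 to 0.0347 for Slc25a16, -0.031 to 0.201 for Slc25a22, -0.0147 to 0.0687 for Slc25a26, -0.0189 to 0.0719 for Slc25a35, -0.0568 to 0.0051 for Slc25a43, -0.116 to 0.0471 for Slc25a44 and -0.0709 to 0.108 for Slc25a51. The causes were not tested.

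With the replicate number as a block (replicate block), 155 genes passed and 0 Slc25a genes did, with the members' median change at 0.0472. Deviations of same-numbered arrays from their group means correlated between -0.09 and 0.02 across genes. Of the 4 WT arrays, 0 correlated best with the NCOR_KO array of their own number. The sample titles give only a replicate number, and 4 arrays per group are too few to settle whether it marks a pairing.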

Other observations

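Several carrier genes lie side by side in the genome, with no other protein-coding gene between them in RefSeq (GRCm38.p6), in 4 pairs. Slc25a41 and Slc25a23 on chromosome 17, 2056 bases apart, were at 0.18 and 0.15. Slc25a54 and Slc25a24 on chromosome 3, 6566 bases apart, were both at 0.11. Slc25a29 and the liver carrier Slc25a47 on chromosome 12, 13956 bases apart, were at 0.13 and -0.13. Slc25a43 and Slc25a5 on chromosome X, 18289 bases apart, were at -0.03 and 0.09. None of these 8 genes passed the threshold, and Slc25a23 was the only one whose groups did not overlap.

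WT replicate 2 held the lowest of the 8 values in 16 of the 46 carrier genes, and the other arrays in 1 to 8. Its median deviation from the gene means was -0.03 over these 46 and -0.02 over all genes, where it was the lowest array. Such counts over all genes are not given here, so they are not shown to be particular to the carriers. NCOR_KO replicate 1 held the highest value in 11, and the other arrays in 3 to 6.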
